A study of Mus musculus with 6 samples.

Results

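Occupancy by tagged TEAD4 was described at 10 mouse genes that set the threshold for programmed cell death: Bcl2, Bcl2l1, Mcl1, Bax, Bak1, Bbc3, Bid, Bcl2l11, Birc2 and Birc5. They were chosen by name as members of the Bcl2 and inhibitor-of-apoptosis (IAP) families, and a probe was theirs if the array annotation gives the symbol with its distance from the gene's start. They are 10 of the 16839 annotated genes on the arrays. Of the 474380 probes other than control spots, 274 name one of them, and 273 were kept after the removal of spots flagged as non-uniform. Each gene had between 18 probes (Bak1) and 44 probes (Bcl2), all within 6000 bp of its start.

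The cells were C2C12 myoblasts, an established mouse muscle precursor line, taken after differentiation into myotubes. One population expressed TEAD4 with a Flag-HA tag from a retroviral vector and gave 2 samples, and the other carried the empty vector and gave 1 control sample. Both were under puromycin selection throughout, spent 5 days in medium with 2% horse serum, and were then crosslinked for 10 min with formaldehyde at 0.4%. The antibody was against Flag, a tag that the cell's own TEAD4 lacks, and the empty-vector cells gave the signal without the tagged protein. On every array Cy5 carried the immunoprecipitated (IP) DNA and Cy3 the input DNA, 4 µg of each. No array had the dyes swapped, so a probe's dye effect cannot be told apart from its value over input. The 3 samples were each hybridised to 2 promoter array designs, 6 arrays in all. The labels call the TEAD4 samples duplicates and do not say that they came from separate cultures, so p-values measure only the spread between these samples, which may be technical.

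The Bcl2 family controls whether mitochondria release cytochrome c. Bcl2, Bcl2l1 (Bcl-xL) and Mcl1 are survival proteins that hold back the pore-forming effectors Bax and Bak1, while Bid, Bcl2l11 (Bim) and Bbc3 (Puma) are BH3-only proteins that relay death signals to both. IAP proteins act further down: Birc2 (cIAP1) is a ubiquitin ligase of tumour necrosis factor signalling, and Birc5 (survivin) works in mitosis as well as in cell survival. TEAD proteins bind DNA and act with the co-activators YAP and TAZ, and in muscle TEAD4 is known as a factor of differentiation.

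The promoters shown are those of the genes on which the results turn: Bid and Bcl2l1, which had the clearest TEAD4 enrichment, and Mcl1, which had the highest control value at its start. Each is the 250 bases before a RefSeq start, on the gene's own strand, from GRCm38.p6, a table used for names and sequence only. Capitals mark GGAATG, the core of the TEAD site, or its reverse complement CATTCC. The promoter of a further Bcl2l1 start, 1011 bp in from the outermost, had neither and is not printed.
Bid, minus strand, chr6:120916825-120917074: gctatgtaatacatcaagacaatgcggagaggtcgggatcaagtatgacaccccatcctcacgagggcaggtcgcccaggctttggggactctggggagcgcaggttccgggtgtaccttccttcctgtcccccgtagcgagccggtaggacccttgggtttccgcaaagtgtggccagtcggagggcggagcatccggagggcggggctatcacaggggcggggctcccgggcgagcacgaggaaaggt
Bcl2l1 outermost start, minus strand, chr2:152831729-152831978: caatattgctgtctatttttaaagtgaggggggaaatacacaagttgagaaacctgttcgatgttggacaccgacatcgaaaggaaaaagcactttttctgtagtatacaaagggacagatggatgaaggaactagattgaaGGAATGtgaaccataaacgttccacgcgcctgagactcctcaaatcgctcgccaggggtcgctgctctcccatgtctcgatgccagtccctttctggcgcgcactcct
Bcl2l1 start 3239 bp further in, minus strand, chr2:152828490-152828739: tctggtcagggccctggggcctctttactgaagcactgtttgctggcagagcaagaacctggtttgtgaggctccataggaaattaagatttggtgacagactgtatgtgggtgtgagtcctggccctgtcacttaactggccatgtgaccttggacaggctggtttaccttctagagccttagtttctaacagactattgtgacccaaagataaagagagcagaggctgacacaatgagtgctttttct
Mcl1, plus strand, chr3:95658471-95658720: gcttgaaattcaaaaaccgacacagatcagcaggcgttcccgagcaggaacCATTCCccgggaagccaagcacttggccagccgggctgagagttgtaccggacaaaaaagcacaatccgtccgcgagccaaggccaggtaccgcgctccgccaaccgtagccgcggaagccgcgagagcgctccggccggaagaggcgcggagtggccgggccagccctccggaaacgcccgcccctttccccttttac

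All 10 genes were found in the RefSeq table, with 16 promoters between them. GGAATG or CATTCC, searched on both strands, occurred in 2 of the 16 (12.5%), against 12.6% of 32851 mouse promoters of this length. The match began at -108 bp from the outermost Bcl2l1 start and at -199 bp from the Mcl1 start. The Bid promoter had no match, which says only that these letters are not in these 250 bases. The search was not made on the enriched array windows inside Bid and Bcl2l1, whose genome build is not stated. Whether any of the printed bases lie under those windows was not established. The Bid and Bcl2l1 promoters differed in base composition: G and C made up 63.6% of the Bid window and 47.6% of the outermost Bcl2l1 window.

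Values are log2 of IP over input, centred on each array's median, so 0 is the array's typical probe and 1 is 2-fold above it. The control array set behaved unlike the TEAD4 sets. Over the 273 probes log2 IP/input had an SD of 0.626 and 0.680 in the TEAD4 samples, against 1.73 in the control. The median IP intensity was 4.55 and 5.76 times its local background in the TEAD4 samples, against 2.34 times in the control. In both TEAD4 samples 100% of the 273 probes had an IP signal well above background, against 95.2% in the control, and no probe was saturated. Each sample was scanned on a day of its own and the control files alone were extracted with extended dynamic range, so neither can be told apart from the sample. The files' own coordinates are printed, and their genome build is not stated in the sources used here. Distances are counted from the annotated start, negative upstream of it.

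The region around each start was taken first, as the mean over all probes within 1000 bp of it (7 to 11 probes a gene). TEAD4 was above input there at Bid, Bax and Bcl2l1 by limma, with a Benjamini-Hochberg adjustment over all 15849 genes that had such a value and a two-sided threshold of 0.05. That is 3 of 10 genes, beside 24.6% of all genes, and none of the 10 was lower than input, beside 4.86% of all genes. Against the control, 9 of the 10 were lower with TEAD4 and none was higher, beside 61.4% and 6.16% of all genes. The share lower than the control rested on how the arrays were scaled: it was 4 of 10 after loess within each array, beside 43% of all genes, and 1 of 10, Mcl1 alone, after normexp background correction, scaling to a common spread or quantile normalization, beside 3.48%, 1.08% and 0.688% of all genes. The test against the control takes its error from the 2 TEAD4 samples, since the control is 1 sample, and the wider spread of the control probes goes against that assumption, so p-values against the control are likely too small throughout.

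**Figure D1:**
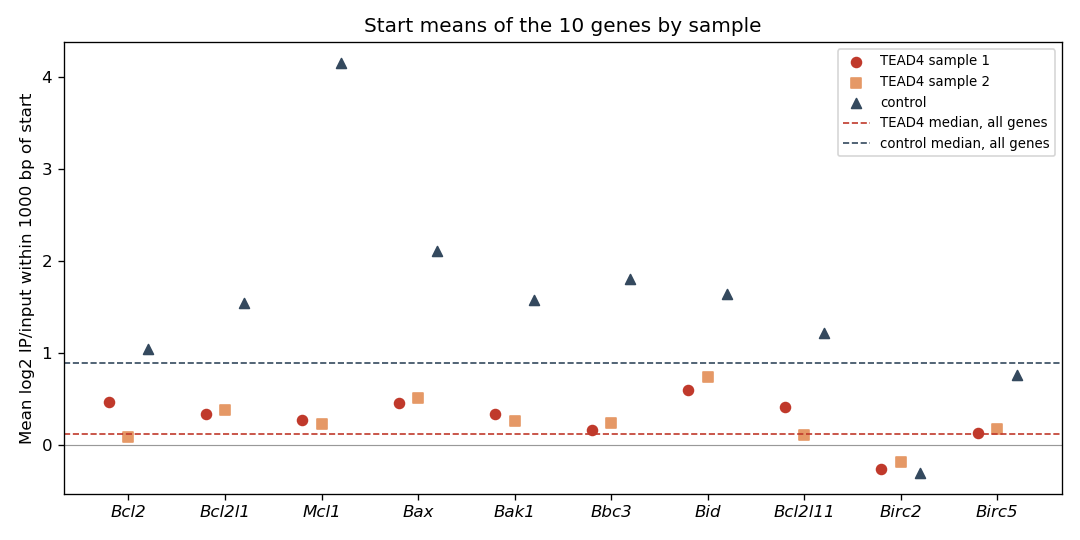
Mean log2 IP/input over probes within 1000 bp of the annotated start (vertical axis) for each of the 10 genes, with one point per sample and dashed lines at the medians over all genes, 0.12 for TEAD4 and 0.90 for the control. The TEAD4 points lie between -0.26 and 0.74, and the control points between -0.30 and 4.15, above both TEAD4 points at every gene but Birc2.

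The 10 genes ordered themselves differently in the 2 kinds of sample. With TEAD4 the means ran from 0.67 (Bid), 0.48 (Bax) and 0.37 (Bcl2l1) through 0.30 (Bak1), 0.28 (Bcl2), 0.26 (Bcl2l11), 0.25 (Mcl1), 0.20 (Bbc3) and 0.15 (Birc5) to -0.22 (Birc2). The SD between the TEAD4 samples was 0.27 at Bcl2 and 0.22 at Bcl2l11 and at most 0.10 at the other 8 genes. Neighbours in this order differed by less than the SD pooled over genes (0.176), except Bid above Bax and Birc2 below Birc5. In the control Mcl1 came first at 4.15, then Bax at 2.11, and Birc2 last at -0.30. Over all genes the median start mean was 0.12 with TEAD4 and 0.90 in the control, and the median difference was -0.72; over the 10 genes these medians were 0.27, 1.56 and -1.08. The all-gene median difference was -0.35 after loess, -0.22 with a common spread, -0.06 after quantile normalization and -0.02 after normexp.

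Probes were also binned by distance. In the first 1000 bp inside the 10 genes (54 probes) the mean was 0.32 with TEAD4 and 1.93 in the control, against 0.19 and 1.05 over all genes. In the next 1000 bp (41 probes) the TEAD4 mean of the 10 genes was 0.43, its highest in any bin that held more than 2 of their probes, and the control mean was 0.94. Over all genes the same bin held means of 0.01 with TEAD4 and 0.19 in the control. The Bid probes of that bin are described with the BH3-only genes.

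**Figure D2:**
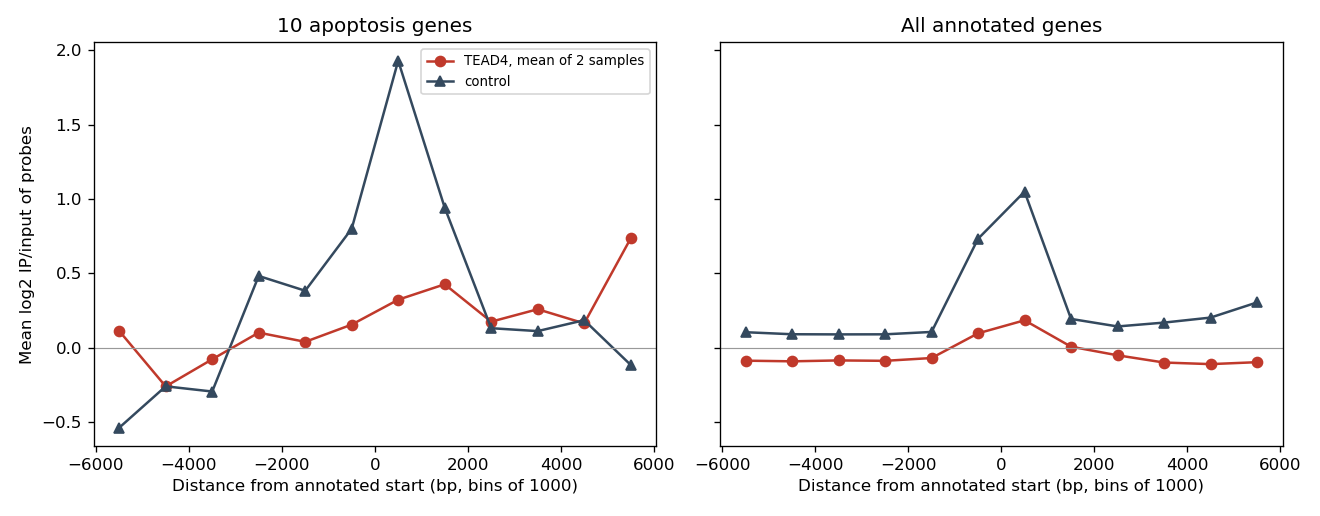
Mean log2 IP/input of probes (vertical axis) in bins of 1000 bp by distance from the annotated start (horizontal axis, bp), for the 10 genes (left) and all annotated genes (right), with TEAD4 as the mean of 2 samples beside the 1 control sample. The control rises to 1.93 just inside the starts of the 10 genes and to 1.05 over all genes, and TEAD4 stays at or below 0.43 except in the outermost bin of the 10 genes, which holds 2 probes.

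Finer position came from windows, each the mean of the probes whose centres lie up to 500 bp from a central probe, with 3 or more probes in all. Neighbouring windows share probes. The 10 genes had 236 windows. Each gene was tested over its windows (limma, Simes p per gene, adjusted over 16533 genes), and took the direction of its window with the lowest p. By this test 6 of 10 were higher than input with TEAD4 (Bid, Bcl2l1, Birc2, Bax, Bbc3 and Bcl2l11) and Birc5 was lower, beside 23.9% and 11.8% of all genes. Against the control, Birc2 was higher and the other 9 were lower, beside 12.4% and 81% of all genes. Most of the lower calls held after loess but not under the other scalings. After loess 6 remained, 2 after normexp, 1 after quantile normalization and 0 with a common spread, beside 64.5%, 4.86%, 3.13% and 0.206% of all genes. By size alone, with no test, both TEAD4 samples reached 2-fold over input in a window of Bid and of Bcl2l1, beside 5.19% of all genes, and in no gene of the 10 were both 2-fold below it, beside 0.327%. The control reached 2-fold over input in a window of all 10, beside 85.6%. Bid and Bcl2l1 also reached 2-fold over the control in a window that passed over input, beside 2.55% of all genes.

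**Figure D3:**
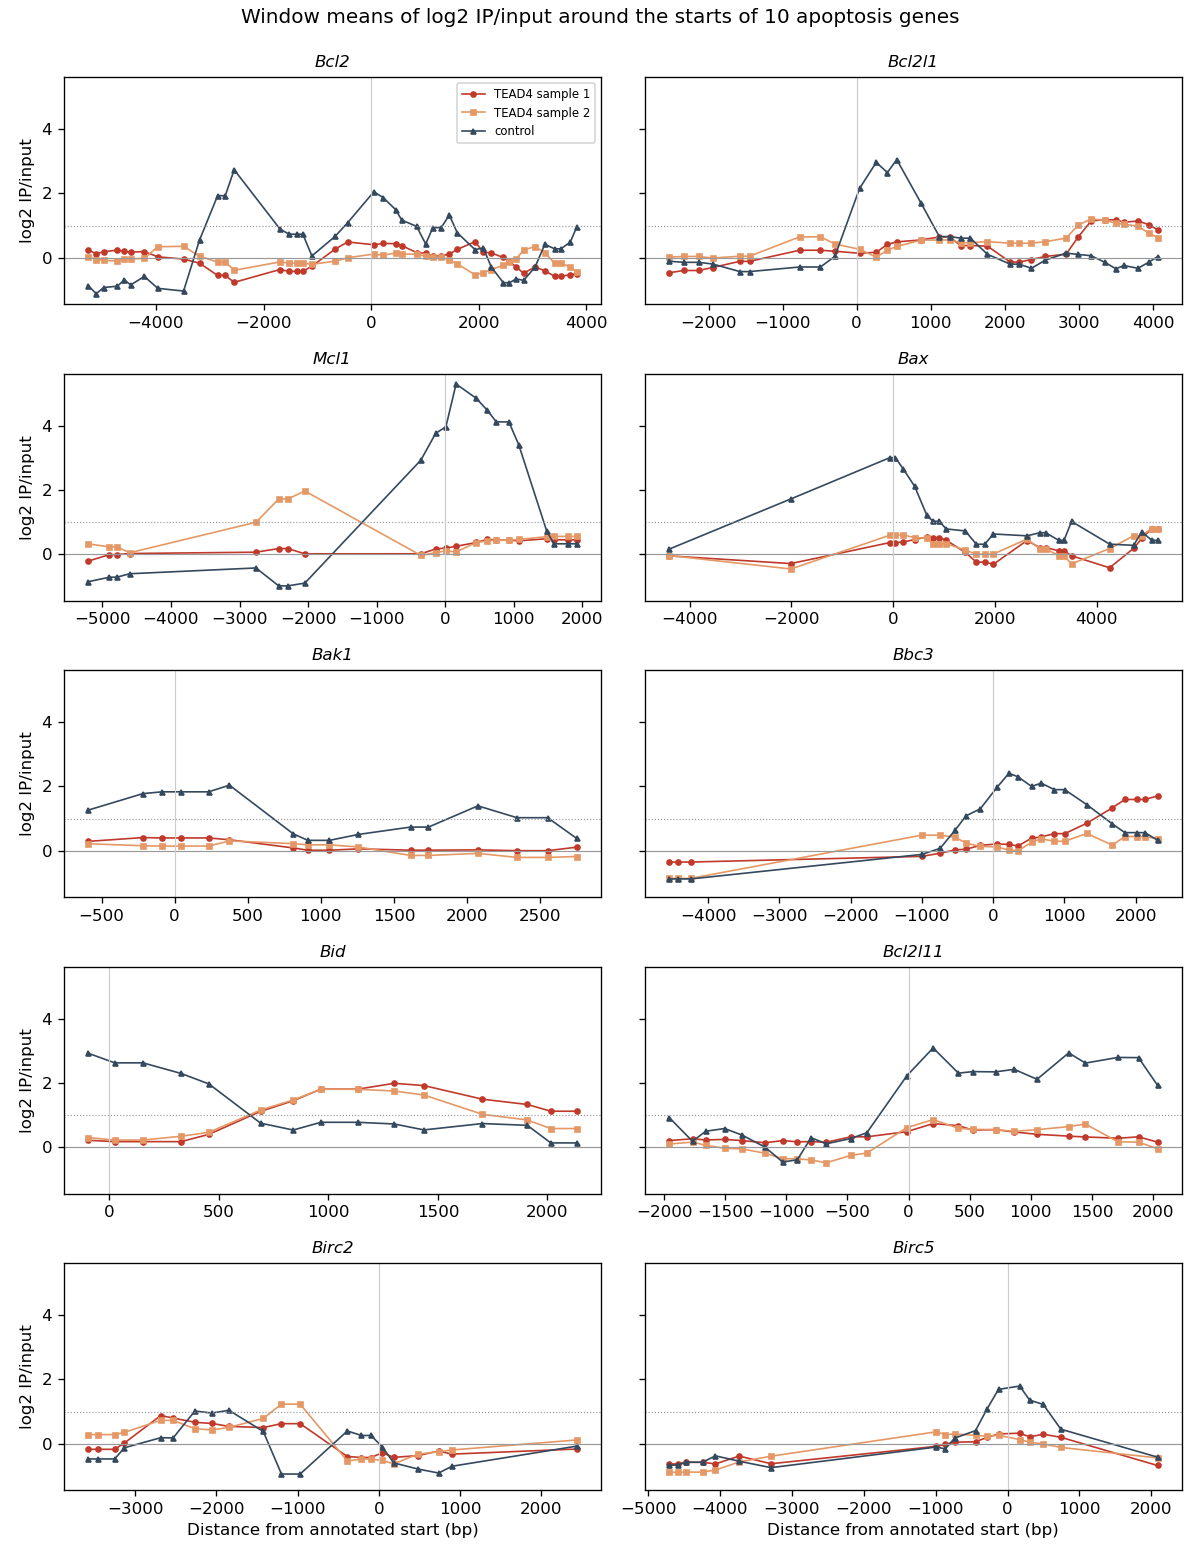
Window means of log2 IP/input (vertical axis) by distance from the annotated start (horizontal axis, bp) at each of the 10 genes, with one line per sample and a dotted line at 2-fold over input. The control line peaks near the start at most genes, up to 5.29 at Mcl1, and both TEAD4 lines pass the dotted line together only inside Bid and Bcl2l1.

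Among the survival genes, Bcl2l1 had TEAD4 enrichment at a distance from its start. Its window with the highest TEAD4 mean lay at chr2:152519295-152520156, 3350 bp inside the gene, and held 6 probes with means of 1.18 and 1.16 in the TEAD4 samples, against -0.14 in the control. The 4 windows in which both TEAD4 samples reached 2-fold over input ran from 3166 to 3606 bp inside. The array annotation also lists a second transcript whose start is 1687 bp before this window's centre, and which RefSeq start the array's distance is counted from was not established.

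The single probes of Bcl2l1 showed the same rise in both TEAD4 samples. The probe at 3350 bp read 1.70 and 2.07 with TEAD4, against -1.26 in the control, where its IP signal was not well above background, so the control value is only an upper bound. The probe at 3501 bp read 1.66 and 1.32 with TEAD4, against -0.85 in the control, and the probe at 3606 bp read 1.63 and 1.06 with TEAD4, against 0.50 in the control. At 4063 bp, the last probe, the values were 0.68 and 0.85 with TEAD4, against 0.38 in the control. The gene's adjusted p over input was 0.0013 by limma, and TEAD4 minus control in the window was 1.32 ± 0.28 (SE). The start was another matter: its mean was 0.34 and 0.39 with TEAD4, against 1.55 in the control, where the probe at 264 bp read 5.35. The start was above input (adjusted p = 0.0283, limma) and below the control (adjusted p = 6.1e-05, limma). With starts of 500 bp the call over input was lost. After normexp the window had a mean of 0.98, under 2-fold, and neither start difference passed the threshold (adjusted p = 0.497 over input and 0.324 against the control). Over its windows Bcl2l1 was called lower than the control, and higher after quantile normalization. With dim probes removed, Bcl2l1 no longer reached 2-fold over input and control in one window.

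**Figure D4:**
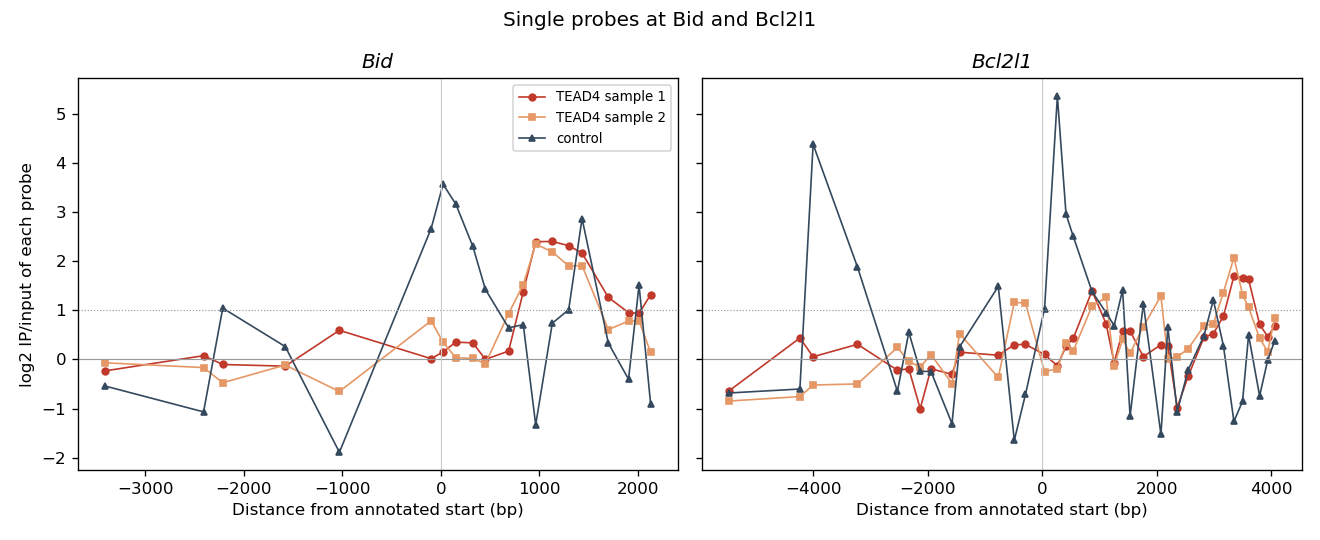
Log2 IP/input of each single probe (vertical axis) by distance from the annotated start (horizontal axis, bp) at Bid (left) and Bcl2l1 (right), one line per sample. At Bid both TEAD4 lines climb to 2.40 and 2.35 at 965 bp, where the control reads -1.33, and at Bcl2l1 they climb to 1.70 and 2.07 at 3350 bp, where the control reads -1.26.

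Mcl1, which encodes a short-lived survival protein, carried the strongest control signal of the 10. Its start mean was 0.28 and 0.23 with TEAD4, against 4.15 in the control, a difference of -3.90 with an adjusted p of 2.4e-12 by limma, whose error leaves out the control's own spread. Only 0.0189% of genes had a lower difference. The input intensities of the start probes averaged 1139 and 1468 in the TEAD4 samples, against 1464 in the control. The IP intensities averaged 1234 and 2028 in the TEAD4 samples, against 8164 in the control. The input averages lean on the probe at 929 bp, with 6812 and 8904 in the TEAD4 samples and 9345 in the control. At 159, 454 and 616 bp the control inputs were only 117, 111 and 92.9, and the control ratios there were 6.25, 4.77 and 6.27. At 745 bp the control input was 710 and the control ratio 5.46. The size of the Mcl1 difference rested on the scaling: it was -3.22 after loess, -1.87 after quantile normalization, -1.58 with a common spread and -1.44 after normexp, and passed the threshold under each of these 4 (adjusted p of at most 0.0261, limma).

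Upstream of Mcl1 the TEAD4 samples disagreed. The window at -2047 bp had means of 0.01 and 1.96 with TEAD4, against -0.90 in the control. Its probes at -2296 and -2047 bp read 3.21 and 3.11 in TEAD4 sample 2, and 0.43 and 0.26 in TEAD4 sample 1. The control IP signal of the probe at -2296 bp was not well above background. The enrichment was therefore seen in 1 TEAD4 sample, and Mcl1 was not called over input (adjusted p = 0.0627, limma). Mcl1 was called over input after normexp, loess and quantile normalization and with windows of 1000 bp on each side. These calls are for the gene over all its windows, not for the upstream window alone. At 1479 bp inside, the TEAD4 samples were alike at 0.48 and 0.54, against 0.73 in the control.

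Bcl2, the founding survival gene of the family, had no window with a TEAD4 mean above 0.29. Its start mean was 0.47 and 0.09 with TEAD4, against 1.04 in the control (adjusted p = 0.115 over input and 0.00518 against the control, limma). The highest control window, at -2546 bp, read 2.73 in the control, against -0.77 and -0.39 with TEAD4. Over the 44 probes of Bcl2 the TEAD4 samples correlated at 0.18, a description over probes that share 2 arrays.

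At the effector genes no window reached 2-fold over input in either TEAD4 sample. Bax had start means of 0.46 and 0.51 with TEAD4, against 2.11 in the control. Bax was above input (adjusted p = 0.00528, limma) and below the control (adjusted p = 1.38e-06, limma) there. Its highest TEAD4 window lay 5196 bp inside the gene, at the edge of the covered region, with 0.80 and 0.80 with TEAD4, against 0.43 in the control. That is under the 2-fold size, and above input by limma for the gene (adjusted p = 0.0149). The window call was lost with windows of 250 bp on each side, and the start call over input with starts of 2000 bp (adjusted p = 0.0674, limma).

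Bak1 gave a start mean of 0.34 and 0.26 with TEAD4, against 1.58 in the control. Its value over input missed the threshold (adjusted p = 0.055, limma), and the difference from the control was -1.28 ± 0.22 (SE; adjusted p = 1.92e-08, limma). No window of Bak1 had a TEAD4 mean above 0.32, and its highest control window, 375 bp inside, read 2.04. Probes naming Bak1 reached no further upstream than -591 bp, and 3 of the 18 also named a second symbol. The sign against the control at the Bak1 start turned after normexp, to 0.65 (adjusted p = 0.0893, limma).

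Among the BH3-only genes, Bid had the strongest TEAD4 signal of all 10. Its highest window lay at chr6:120880710-120881625, 1300 bp inside the gene, and its 6 probes averaged 1.99 and 1.75 with TEAD4, against 0.72 in the control. The TEAD4 mean of 1.87 exceeded the highest window of 99.2% of genes. Both TEAD4 samples reached 2-fold over input in 7 of the gene's 15 windows, from 690 to 1703 bp inside. In 4 of these, from 965 to 1436 bp, they also reached 2-fold over the control. Each of these 4 windows holds the probe at 965 bp, where the control read -1.33. With windows of 1000 bp on each side, Bid no longer reached 2-fold over input and control in one window.

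The probes of Bid traced a single hill in both TEAD4 samples. At 454 bp the values were 0.00 and -0.09 with TEAD4, against 1.43 in the control. At 839 bp they were 1.38 and 1.52 with TEAD4, against 0.71 in the control, and at 965 bp 2.40 and 2.35 with TEAD4, against -1.33 in the control. The summit held at 1134 bp with 2.40 and 2.19 with TEAD4, against 0.74 in the control. The probe at 1436 bp read 2.17 and 1.91 with TEAD4, and 2.87 in the control, so the control was not low at each probe under the hill. By 1908 bp the values were 0.95 and 0.78 with TEAD4, against -0.40 in the control. At the 965 bp probe the IP intensity was 9110 against an input of 1731 in TEAD4 sample 1, and 7038 against 1401 in TEAD4 sample 2.

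Bid was above input by limma over its windows (adjusted p = 2.57e-05) and at its start (0.60 and 0.74 with TEAD4, against 1.64 in the control; adjusted p = 0.000393, limma). With the start region narrowed to 500 bp, which leaves out the hill, the value over input was 0.20 and missed the threshold (adjusted p = 0.304, limma). The start was below the control by 0.97 ± 0.21 (SE; adjusted p = 0.000477, limma). That sign turned to 0.05 after normexp, 0.21 with a common spread and 0.35 after quantile normalization, none past the threshold. Over its windows Bid was called lower than the control (adjusted p = 9.78e-06, limma), through the windows at its start, and was called higher after normexp, after loess, with a common spread and after quantile normalization. Over the 20 probes of Bid the TEAD4 samples correlated at 0.85 with each other, and at -0.13 and 0.10 with the control. These are descriptions over neighbouring probes.

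Bbc3, a target of p53 in the response to DNA damage, showed enrichment in 1 TEAD4 sample. Its window 2306 bp inside, where coverage ends, had means of 1.70 and 0.37 with TEAD4, against 0.33 in the control. The 3 probes from 1847 to 2129 bp read 1.56 to 1.93 in TEAD4 sample 1, and 0.04 to 0.27 in TEAD4 sample 2. Bbc3 was called above input over its windows (adjusted p = 0.0153, limma), but its start was not (0.16 and 0.24 with TEAD4, against 1.81 in the control; adjusted p = 0.235, limma). Its window call against the control, lower, turned to higher after loess.

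Bcl2l11, which encodes Bim, had broad control signal with a shallow TEAD4 rise beneath it. In its highest TEAD4 window, 201 bp inside, the values were 0.73 and 0.86 with TEAD4, against 3.09 in the control. The gene was above input over its windows (adjusted p = 0.0234, limma), a call lost after normexp. Its start mean was 0.42 and 0.11 with TEAD4, against 1.22 in the control. There only the difference from the control passed (adjusted p = 0.000785, and over input 0.124, limma). With starts of 500 bp the value over input passed as well. The control reached 2-fold over input in 12 of its 24 windows, and no window did with both TEAD4 samples.

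Of the IAP genes, Birc2 departed from the others in having no control peak at the start from which its distances are counted. Its start mean was -0.26 and -0.18 with TEAD4, against -0.30 in the control, and neither the value over input (adjusted p = 0.182) nor the difference of 0.08 ± 0.21 (SE; adjusted p = 0.752, limma) passed. Upstream, the window at -1198 bp, chr9:7836715-7837228, held 3 probes with means of 0.62 and 1.23 with TEAD4, against -0.94 in the control. TEAD4 minus control was 1.87 ± 0.31 (SE), and Birc2 was the 1 gene of the 10 called higher than the control (adjusted p = 0.000536, limma). The TEAD4 mean in it was 0.93, with 1 sample under 2-fold over input, and the gene was above input by limma (adjusted p = 0.0102). The call against the control was lost with at least 5 probes a window, with windows of 1000 bp on each side, after normexp and with a common spread. The call over input held under each of these. The array annotation places this window 611 bp inside an Ensembl transcript that overlaps the region, so it is not upstream of every annotated start. The highest control window of Birc2, at -1845 bp, lay around that transcript's start and read 1.04, against 0.54 and 0.51 with TEAD4.

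Birc5 had a control peak at its start and no window with a TEAD4 mean above 0.28. Its highest TEAD4 window, at -126 bp, read 0.30 and 0.26 with TEAD4, against 1.69 in the control. Its start mean was 0.13 and 0.17 with TEAD4, against 0.76 in the control (adjusted p = 0.37 over input and 0.00797 against the control, limma). Birc5 was called lower than input (adjusted p = 0.00722, limma) through windows far upstream, where that at -4706 bp read -0.63 and -0.89 with TEAD4, and -0.67 in the control. The low values there were present in all 3 samples.

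**Figure D5:**
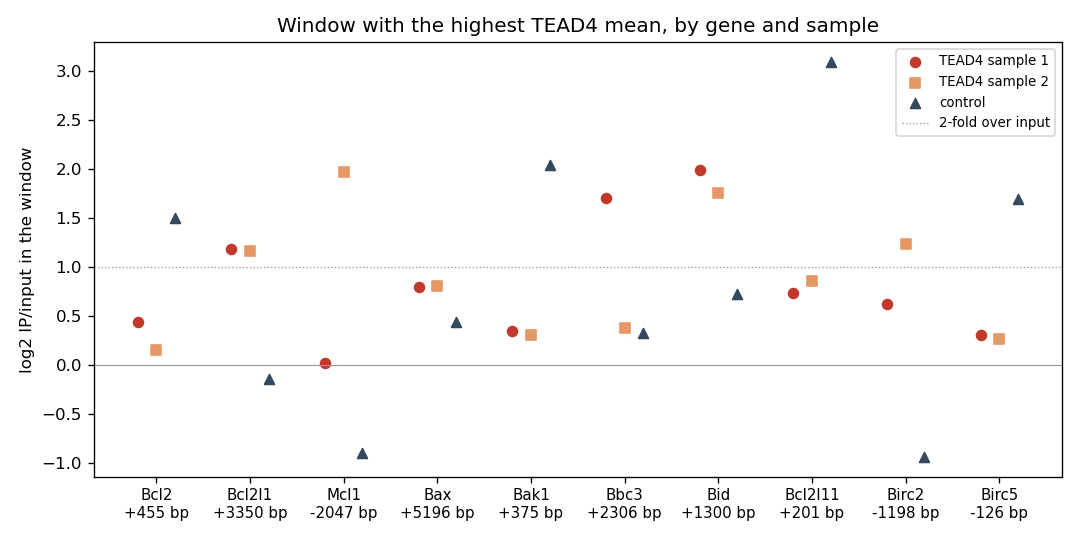
Log2 IP/input (vertical axis) in each gene's window of highest TEAD4 mean, one point per sample, with the window's distance from the start under the gene's name. Both TEAD4 points are above the dotted 2-fold line at Bid (1.99 and 1.75) and Bcl2l1 (1.18 and 1.16) only, and the TEAD4 points are far apart at Mcl1 (0.01 and 1.96) and Bbc3 (1.70 and 0.37).

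Across the 10 genes together, the highest TEAD4 window lay within 1000 bp of the start at 4 of 10 genes, beside 52.4% of all genes, and the highest control window did so at 8 of 10, beside 60.1%. The median highest TEAD4 window was 0.86 for the 10 genes and 0.40 for all genes. Of their 236 windows, 11 (4.66%) reached 2-fold over input with both TEAD4 samples, against 0.66% of all windows, and these 11 were the 7 of Bid and 4 of Bcl2l1. Both TEAD4 samples were 2-fold or more above the control in 14 (5.93%), against 3.33% of all windows, found at Bcl2l1, Bid, Birc2, Mcl1 and Bcl2, or 5 of 10 genes beside 29.9% of all genes. The 1 such window of Bcl2, at -5111 bp, read 0.12 and -0.06 with TEAD4, against -1.12 in the control. That of Mcl1 at -2428 bp read 0.18 and 1.72 with TEAD4, against -0.99 in the control. Both TEAD4 samples were 2-fold or more below the control in 65 (27.5%), against 21.8%, spread over the 9 genes other than Birc2, beside 81.8% of all genes. Over the 273 probes the TEAD4 samples correlated at 0.54 with each other, and at 0.13 and 0.02 with the control.

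The other genes of the pathway were taken from 5 lists chosen by function, 64 genes of which 55 had a window. Both TEAD4 samples reached 2-fold over input in a window at 5 of the 55, beside 5.19% of all genes. At Bnip3l and Htra2 they also reached 2-fold over the control in that window, beside 2.55% of all genes. By limma over the windows 15 of the 55 were higher than input with TEAD4 and 6 were lower, beside 23.9% and 11.8% of all genes, and the median highest TEAD4 window was 0.40, the same to 2 decimals as over all genes. Against the control 6 were higher and 45 lower, beside 12.4% and 81% of all genes.

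Bnip3l, a mitochondrial relative of the BH3-only genes that marks mitochondria for removal, read 1.79 and 1.35 with TEAD4, against -0.77 in the control, in a window at -389 bp. Htra2, a mitochondrial protease that antagonises IAP proteins, read 1.58 and 1.62 with TEAD4, against -0.27 in the control, 1621 bp inside. In other windows the control reached 3.49 at Bnip3l and 3.37 at Htra2. Over their windows both genes were called lower than the control (adjusted p = 1.22e-06 and 0.000106, limma). The remaining 3 did not reach 2-fold over the control in a window that passed over input. Their values are from the window of highest TEAD4 mean. Cflar, which restrains caspase-8, read 1.35 and 1.06 with TEAD4, against 0.68 in the control. Tnfrsf1a, the main tumour necrosis factor receptor, read 1.56 and 1.19 with TEAD4, against 2.85 in the control, and Trp53, which encodes p53, read 1.25 and 1.59 with TEAD4, against 2.25 in the control. None of the 16 genes of the apoptosome and caspase list reached 2-fold over input in both TEAD4 samples, and 3 of them were higher and 3 lower than input by limma. The listed genes Bcl2a1a, Bcl2a1b, Bcl2a1c, Bcl2a1d, Bcl2l15, Birc7, Naip2, Naip6 and Xiap were not analysed here for want of a window under their names.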

How the data were processed

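Per the file headers, intensity was extracted in Agilent Feature Extraction 9.5.3.1, whose processed intensities of both channels, as deposited, are background-subtracted and dye-normalized. The authors' deposited log10 ratios come from those intensities, are not centred (array medians from -0.182 to 0.00124) and served only to check the direction. Here log2 IP/input was computed from them and centred on each array's median, with control spots, unpositioned probes and non-uniform spots left out, which kept 471870 probes. Windows spanned 500 bp on each side of a probe (at least 3 probes). Start means covered probes within 1000 bp of an annotated start.

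The 3 samples of each design were fitted with limma 3.58.1 in R 4.3.3. There is 1 residual degree of freedom, so the test leans on a variance pooled over windows or genes, and the 1 control sample is assumed to vary like the TEAD4 samples, which its wider log ratios go against. P-values were adjusted over all genes. Fits were tested on simulated data in which the control had the spread of the TEAD4 samples. That test therefore cannot show how the fit behaves with the wider control. With 1 array per sample and design, the number of arrays limits the precision. The members, lists and rules were chosen with earlier results of these data known. All 10 members are named, and of the other lists each gene whose TEAD4 samples both reached 2-fold over input in a window. The promoter of Tead4 itself was not measured (2 probes, no window). Alternatives covered background correction, scaling, window and start width, probe number, dim probes, fold size and single TEAD4 samples.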

Additional observations from a re-analysis of the deposited data

How the results depend on the processing

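Both TEAD4 samples, or the 1 kept where the other was left out, passed the size rule over input in a window of Bid under every alternative run, including 3-fold, and of Bcl2l1 under all but normexp and 3-fold. The share of all genes called moved with the counts of the 10 and stands in brackets. Over input by this rule were 1 after normexp (3.35%), 5 with a common spread (15.3%), 7 after quantile normalization (27.9%), 5 at 1.5-fold (20.2%) and 1 at 3-fold (0.78%), against 2 in the report (5.19%), and 3 to 4 with 1 TEAD4 sample left out (8.05% to 15.5%). Above input and control in one window were 1 after normexp (2.51%), 4 after quantile normalization (17.2%), 1 with windows of 1000 bp on each side (0.968%), 1 with dim probes removed (2.49%) and 0 at 3-fold (0.411%), against 2 (2.55%), and 3 to 4 with 1 TEAD4 sample left out (3.87% to 8.26%). Over input in the control were 5 after normexp (19%), against 10 (85.6%).

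Above the control by size were 2 after normexp (7.97%), 3 with a common spread (12.5%), 2 with 1000 bp windows (13.1%), 0 at 3-fold (4.75%) and 2 with at least 5 probes (16.5%), against 5 (29.9%). Below it were 3 after normexp (10.8%), 4 with a common spread (31.7%) and 4 after quantile normalization (30.8%), against 9 (81.8%). By limma over windows, higher than the control were 3 after loess (26.5%), 3 after quantile normalization (6.51%), 0 with 1000 bp windows (15%) and 0 with at least 5 probes (12.9%), against 1 (12.4%). Lower were 2 after normexp (4.86%), 0 with a common spread (0.206%) and 1 after quantile normalization (3.13%), against 9 (81%). Lower than input were 0 after normexp (0.296%) and 2 with dim probes removed (13%), against 1 (11.8%). For start means, lower than the control were 1 after normexp (3.48%), 4 after loess (43%), 1 with a common spread (1.08%) and 1 after quantile normalization (0.688%), against 9 (61.4%), and higher than input were 5 after quantile normalization (34.1%), against 3 (24.6%).

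Signs of values turned as follows. After normexp, the start mean over input was -0.17 at Mcl1. TEAD4 minus control at the start was then 0.65 at Bak1, 0.051 at Bid, -0.17 at Birc2 and 0.14 at Birc5, and in the highest window 0.34 at Bak1. With a common spread, the start difference was 0.21 at Bid and -0.18 at Birc2. After quantile normalization it was 0.11 at Bcl2, 0.35 at Bid, 0.030 at Bcl2l11 and 0.029 at Birc5. With starts of 500 and 2000 bp, Birc2 gave -0.30 and -0.057. With 250 bp windows, the highest Bax window gave -0.043 against the control. Window calls against the control turned from lower to higher at Bid after normexp, loess, a common spread and quantile normalization, at Bbc3 after loess and at Bcl2l1 after quantile normalization. The cause was not tested. Leaving out a TEAD4 sample left no residual degrees of freedom, so these values carry no test. No paired analysis was possible because the control has 1 sample. Slide as a block was not run, since each slide holds 1 array.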
